A study of Mus musculus with 57 samples.

Results

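The genes described here are 10 that make, recycle or take up inositol in mouse prefrontal cortex. They are the phosphatases Impa1, Impa2, Inpp1 and Bpnt1, the synthase gene Isyna1, the transporter gene Slc5a3, the kinase gene Itpk1, and Cds1, Cds2 and Cdipt, which rebuild phosphatidylinositol. The genes were chosen by name and not by a cut on their values, though with earlier results of these data known. They are the rows of the deposited table whose Ensembl identifier maps to these symbols. All 10 were found among the 18088 genes of the table, and all 10 passed the filter on low values (a normalised count of at least 10 in at least 3 libraries), which 18026 genes passed in all.

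Inositol is a small sugar alcohol from which cells build phosphatidylinositol and its phosphorylated forms. Receptors that activate phospholipase C cut the bisphosphate form of this lipid into diacylglycerol and inositol trisphosphate, which releases calcium from internal stores. A chain of phosphatases then strips the phosphates off, with INPP1 and BPNT1 acting upstream or beside the inositol monophosphatases IMPA1 and IMPA2, and all of these enzymes are inhibited by lithium. Free inositol is also made from glucose 6-phosphate by the synthase ISYNA1 and taken up together with sodium by SLC5A3, also called SMIT1. The cytidine diphosphate diacylglycerol synthases CDS1 and CDS2 and the phosphatidylinositol synthase CDIPT return inositol to the membrane.

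Polyadenylated RNA was sequenced from the prefrontal cortex of C57BL/6J mice. They were either wild type (WT) or carried 1 copy of Shank3 delta C (heterozygous, HT), an allele of the gene for a synaptic scaffold protein whose effect on the transcript the sources used here do not give. Pups of both sexes received vehicle, lithium or fluoxetine, an inhibitor of serotonin reuptake, through their mothers' milk from postnatal day 3 to day 24, a treatment of 3 weeks, and tissue was taken at postnatal day 25. No group was free of dosing through the dam, and doses, litters and dams are not given in the sources used here. The 12 groups held 5 libraries each, except WT lithium females (4), HT lithium males (4) and HT vehicle males (3), which made 56 libraries. Because litters are not named, each p-value treats every library as independent and measures the spread between these samples.

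The libraries held 22984556 to 35969254 reads over the listed genes. A normalised count is a gene's read count divided by the size factor of its library. Shank3 ranged from 5170 to 11197 normalised counts over all libraries, a gene-level value that joins all transcripts and does not check the genotype labels. Defining markers of cortical excitatory neurons were detected in every group, where their summed level ranged from 88954 to 191985 over libraries. Of the HT vehicle females, library 1 differed from the median library by 5.69 log2 units in choroid plexus markers, and of the HT lithium females, library 5 differed by -1.64 in mitochondrially encoded genes. For comparisons that use these 2 libraries, the called values of the 10 genes, their HT lithium values and many of the list counts are also given without them. For genes of the lists, a value without them is given at least where a stated call was lost. The summed level of 5 olfactory bulb markers, from a neighbouring region, ran from 239 to 14785 normalised counts over libraries.

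Per kilobase of the longest annotated transcript, Cds2 and Cdipt stood highest at means of 1927 and 1803 normalised counts over the 56 libraries. Cds1 (796), Bpnt1 (704), Itpk1 (583), Impa1 (443) and Isyna1 (399) followed on the same per-kilobase scale. Inpp1 (149), Slc5a3 (69.0) and Impa2 (29.7) had the lowest levels per kilobase. Impa2, the second inositol monophosphatase gene, was thus detected far below Impa1, with 100 reads in its lowest library against 1340 for Impa1.

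**Figure D1:**
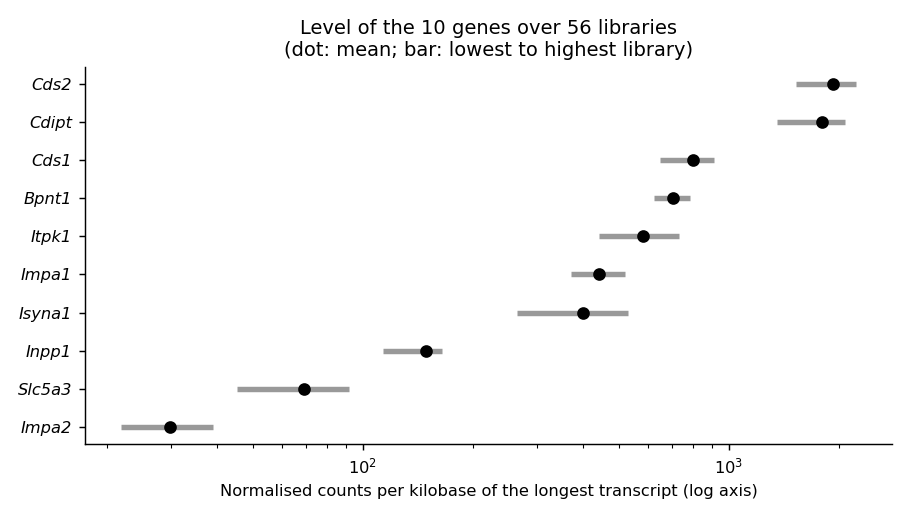
Level of each of the 10 genes in normalised counts per kilobase of the longest transcript, on a log axis, with the dot at the mean of 56 libraries and the bar from the lowest to the highest library. Cds2 and Cdipt lie near 1927 and 1803, and Slc5a3 and Impa2 lie lowest at 69.0 and 29.7.

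The libraries of a group agreed most closely for Inpp1, Cdipt, Bpnt1 and Impa1, whose median coefficients of variation within groups were 5.1%, 5.6%, 6.0% and 6.1%. Slc5a3, Impa2 and Isyna1 varied more, with median coefficients of 13.7%, 12.6% and 11.8%. Counting error alone would give coefficients of 3.7% for Slc5a3, 3.6% for Isyna1 and 8.2% for Impa2, so the spread of Slc5a3 and Isyna1 was over 3 times their counting error. The group means spanned 1.61-fold for Slc5a3 and 1.43-fold for Isyna1, and between 1.08-fold (Bpnt1) and 1.26-fold (Itpk1) for the other genes.

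Under lithium, the transcripts of the transporter Slc5a3 and the synthase Isyna1 were higher, and no lithium-inhibited phosphatase passed the test with the sexes averaged. Differences are log2 fold changes of normalised count plus 1, with the standard error after ±, tested with limma over all 18026 genes, and a gene counts as called where p, adjusted by the method of Benjamini and Hochberg, is below 0.05. In WT mice, with the sexes averaged, 2 of 10 genes were called, both higher, where 11.7% of all genes were called in either direction. In HT mice 1 of 10 was called, also higher, where 9.77% of all genes were. With the genotypes averaged as well, the same test called 2 of 10, both higher, and 21.7% of all genes. The median log2 fold change of the 10 genes was 0.06 in WT and 0.03 in HT, beside -0.003 and 0.002 over all genes. These shares lie near the background, so the counts set nothing apart about the 10 genes as a group. In bulk tissue, fewer cells of a type and less RNA per cell cannot be told apart.

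Fluoxetine against the same vehicle libraries called 1 of 10 genes, higher, in WT, where 5.18% of all genes were called. In HT mice limma called 0 of 10, where 0.0% of all genes were called, edgeR on the recovered reads also called 0, and 1 of 10 had an unadjusted p below 0.05. The lithium and fluoxetine comparisons share their vehicle libraries, so a high or low vehicle group moves both. Lithium against fluoxetine, which does not use those libraries, called 0 of 10 genes in WT (0.233% of all genes) and 0 of 10 in HT (0.555%) with limma and with edgeR, with 2 and 1 genes at an unadjusted p below 0.05.

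**Figure D2:**
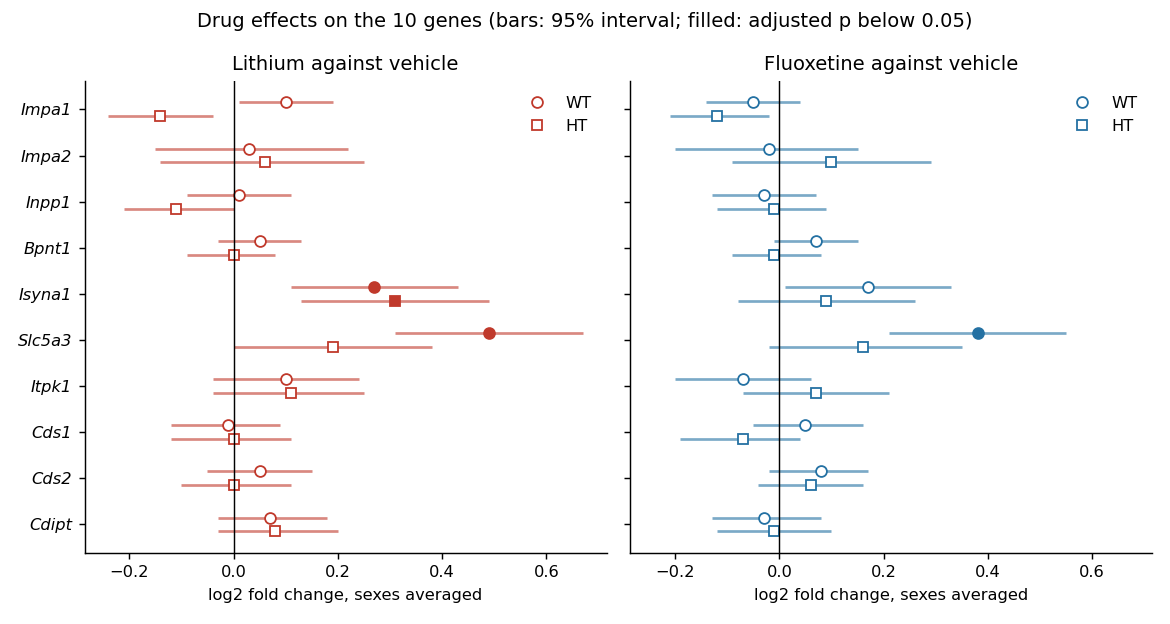
Log2 fold change of each of the 10 genes against vehicle, sexes averaged, for lithium (left, red) and fluoxetine (right, blue) in WT (circles) and HT (squares), with 95% confidence intervals as bars and filled symbols for adjusted p below 0.05. Filled symbols mark Slc5a3 in WT under both drugs and Isyna1 under lithium in both genotypes.

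Slc5a3 (ENSMUSG00000089774, chr16:92058322-92087473, plus strand, GRCm38) encodes the sodium-coupled transporter that brings inositol into cells. In WT females its normalised counts were 722, 739, 571, 675 and 534 under vehicle and 797, 967, 985 and 861 under lithium. Every lithium library of the WT females lay above every vehicle library, a separation in this direction that 5.27% of all genes showed. In WT males the vehicle libraries held 700, 502, 495, 511 and 586 normalised counts and the lithium libraries 798, 876, 808, 690 and 745. Among these males a single vehicle library, at 700, lay above the lowest lithium library, at 690, and the other 4 lay below all 5. The log2 fold change of Slc5a3 in WT, sexes averaged, was 0.49 ± 0.09 (95% interval 0.31 to 0.67, 1.40-fold, limma adjusted p = 1.36e-04). This call held in all 12 other settings and without any 1 library. The value was 0.48 ± 0.13 in females (adjusted p = 0.0139) and 0.49 ± 0.12 in males (adjusted p = 0.016), and the difference between the sexes was 0.01 ± 0.17 (95% interval -0.34 to 0.36, adjusted p = 0.994). Within a sex the call was less firm. After correction for GC content and length it was 0.40 (adjusted p = 0.0531) in females and 0.35 (adjusted p = 0.0937) in males, the highest of 12 settings that began at 0.0029 and 0.00375. It was also lost without lithium female 2 (adjusted p = 0.0523) and without vehicle male 3 or 4 (adjusted p = 0.0667 and 0.0566).

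In HT mice Slc5a3 was higher under lithium by an amount that did not pass the test. HT females had 779, 557, 611, 730 and 717 normalised counts under vehicle and 762, 957, 797, 807 and 829.3 under lithium. HT males had 634, 739 and 801 under vehicle and 804, 699, 810 and 750 under lithium. The groups overlapped in both sexes, with the highest HT vehicle female, the library rich in choroid plexus markers, inside the lithium range. The log2 fold change in HT, sexes averaged, was 0.19 ± 0.09 (95% interval 0.00 to 0.38, adjusted p = 0.211), and 0.22 (adjusted p = 0.181) without the 2 libraries that stand apart. The lithium effect on Slc5a3 differed between the genotypes by -0.30 ± 0.13 (HT minus WT, 95% interval -0.56 to -0.04), which did not pass over all genes (adjusted p = 0.465), and by -0.27 (adjusted p = 0.607) without the 2 libraries. With genotypes averaged, Slc5a3 rose by 0.34 ± 0.06 on the log2 scale (1.27-fold, limma adjusted p = 9.82e-05), and by 0.35 (adjusted p = 9.67e-05) without the 2 libraries.

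Slc5a3 was also higher under fluoxetine in WT. In WT males the fluoxetine libraries held 789, 978, 958, 735 and 722 normalised counts, all above the 5 vehicle libraries, as for 2.33% of all genes. In WT females they held 570, 726, 854, 807 and 704, which overlapped the vehicle range of 534 to 739. The log2 fold change in WT, sexes averaged, was 0.38 ± 0.09 (95% interval 0.21 to 0.55, 1.30-fold, limma adjusted p = 0.00527). It was 0.58 ± 0.12 in WT males (adjusted p = 0.00874) and 0.17 ± 0.12 in WT females (adjusted p = 0.364), and the difference between the sexes was not tested. The male value lost its call after the GC and length correction (0.40, adjusted p = 0.0872, in a range of 6.50e-04 to 0.0872 over settings), in a fit of the compared groups alone (0.58, adjusted p = 0.0549) and without fluoxetine male 3 (0.53, adjusted p = 0.0555). In WT, Slc5a3 did not differ detectably between the drugs, at 0.11 ± 0.09 for lithium minus fluoxetine (95% interval -0.06 to 0.29, adjusted p = 0.749).

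HT females under fluoxetine had 952, 682, 940, 920 and 1000 normalised counts of Slc5a3, with 4 of 5 above the whole vehicle range. Their log2 fold change of 0.40 ± 0.12 missed the threshold (limma adjusted p = 0.102) and passed it without the library at 682 (0.50, adjusted p = 0.0366), where leaving out other libraries gave adjusted p up to 0.337. It also passed with array weights (0.41, adjusted p = 0.0143), with the olfactory level as a covariate (0.40, adjusted p = 0.0409) and without the 14 libraries of highest olfactory level (0.46, adjusted p = 0.0461), in a range of 0.0143 to 0.268 over settings. Of all genes, these settings called 749, 355 and 142 in that order, against 131 in the main fit. The log2 fold change was 0.46 (adjusted p = 0.0867) without the 2 libraries that stand apart. HT males under fluoxetine had 495, 682, 701, 761 and 832, spread around their vehicle libraries (-0.08 ± 0.14, adjusted p = 1). With the sexes averaged, the HT value of Slc5a3 was 0.16 ± 0.09 (adjusted p = 0.76), or 0.19 (adjusted p = 0.62) without the 2 libraries, and the difference of the fluoxetine effect between genotypes was -0.21 ± 0.12 (adjusted p = 1).

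Ordered by group mean, Slc5a3 was lowest in WT vehicle males (559 ± 86.7 SD, n = 5), WT vehicle females (648 ± 91.5, n = 5) and HT vehicle females (679 ± 91.7, n = 5). It was highest in WT lithium females (903 ± 88.9, n = 4) and HT fluoxetine females (899 ± 124.6, n = 5). No neighbouring pair of groups in that order differed by more than the larger of their SDs, so the order ranks single groups loosely.

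The gene Mrps6, for a protein of the mitochondrial ribosome, starts just upstream on the same strand and spans Slc5a3, with 159 shared exonic bases (1.5% of those of Slc5a3). Reads of those bases could be assigned to either gene. Mrps6 had 0.03 ± 0.07 under lithium in WT (limma adjusted p = 0.84) and 0.09 ± 0.07 under fluoxetine in WT (adjusted p = 0.553), beside 0.49 and 0.38 for Slc5a3. The window upstream of the first exon of Slc5a3, from RefSeq on GRCm38.p6 (chr16:92058072-92058269, plus strand, 198 bases), lies just upstream of both genes and is shown because this transporter gene changed under both drugs in WT. Capitals mark GGGCGG, the GC box bound by Sp and KLF factors.
Slc5a3: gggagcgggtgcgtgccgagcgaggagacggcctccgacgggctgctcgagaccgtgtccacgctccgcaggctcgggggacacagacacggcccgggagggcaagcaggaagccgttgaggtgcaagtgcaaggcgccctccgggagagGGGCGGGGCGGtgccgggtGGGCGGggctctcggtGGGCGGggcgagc
The 198 bases hold 4 matches of GGGCGG, 2 of them overlapping by a base, and 75.8% G or C. At least 1 match on either strand was found in 24.3% of 32851 promoter windows of that length. The search of both strands also covered the CCAAT box (28.1% of windows of this length), the letters TGACG of the cAMP response element (12.5%) and TGGAAA, the core of the element bound by the tonicity factor NFAT5 (15.7%). It further covered the E2F site TTTCGCGC (0.201%) and the E box CACGTG (4.27%), and no match of these 5 motifs is in the 198 bases.

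Isyna1 (ENSMUSG00000019139, chr8:70594373-70597290, plus strand, GRCm38) encodes the enzyme that makes inositol from glucose 6-phosphate. WT females held 695, 627, 608, 628 and 505 normalised counts under vehicle and 846, 898, 876 and 882 under lithium. The lithium libraries were high and tight, and all 4 lay above all 5 vehicle libraries, a separation in this direction that 5.27% of all genes showed. In WT males the vehicle libraries held 790, 712, 779, 945 and 749, and the lithium libraries 871, 924, 935, 595 and 735, so the ranges overlapped throughout. The log2 fold change in WT, sexes averaged, was 0.27 ± 0.08 (95% interval 0.11 to 0.43, 1.21-fold, limma adjusted p = 0.0229). It was 0.52 ± 0.12 in WT females (adjusted p = 0.00431) and 0.02 ± 0.11 in WT males (adjusted p = 0.971). The difference between these effects, male minus female, was -0.51 ± 0.16 (95% interval -0.83 to -0.18), which did not pass over all genes (adjusted p = 0.306). The averaged value in WT was 0.24 (adjusted p = 0.0541) without the lowest vehicle female, at 505, in a range of 0.00547 to 0.0541 over single libraries left out. It was 0.23 (adjusted p = 0.109) without the 14 libraries of highest olfactory level, the highest p over 12 settings that began at 0.00243. Of the WT libraries compared here, those 14 include lithium female 1, lithium males 1 and 2, vehicle female 2 and vehicle male 1. They also include 3 of 5 HT lithium females, of which libraries 1 and 5 remain, and 3 of 5 WT fluoxetine females. The value in WT females held its call in all of these settings and without any 1 library.

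In HT mice the lithium libraries of Isyna1 lay above all vehicle libraries in both sexes. HT females held 762, 621, 623, 732 and 755 normalised counts under vehicle and 821, 876, 832, 1012 and 852 under lithium, a separation in this direction that 3.23% of all genes showed. HT males held 690, 637 and 640 under vehicle and 698, 810, 955 and 757 under lithium, where the share of all genes was 8.57%. With the sexes averaged, Isyna1 rose in HT by 0.31 ± 0.09 on the log2 scale (95% interval 0.13 to 0.49, 1.24-fold, limma adjusted p = 0.0175), and by 0.33 (adjusted p = 0.0198) without the 2 libraries that stand apart. It lost its call without lithium male 3 (0.27, adjusted p = 0.0594) or vehicle male 3 (0.30, adjusted p = 0.0509). HT females alone gave 0.33 ± 0.11 (adjusted p = 0.0463), which kept its call in 5 of 12 other settings (adjusted p from 0.0224 to 0.199, and 0.0527 without the 2 libraries) and for 3 of 10 libraries left out. HT males gave 0.29 ± 0.14 (adjusted p = 0.433). The lithium effect on Isyna1 differed between genotypes by 0.04 ± 0.12 (95% interval -0.20 to 0.28, adjusted p = 0.955). Averaged over genotypes and sexes, the rise was 0.29 ± 0.06 (1.22-fold, limma adjusted p = 3.10e-04), or 0.30 (adjusted p = 3.36e-04) without the 2 libraries.

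Transcripts of Isyna1 are rich in G and C (60.7%), and those of Slc5a3 are not (41.6%). The trend of library values with GC content, as the slope in log2 units per 10 percentage points against the mean library, moved with some group comparisons. It averaged -0.044 ± 0.045 (SD, n = 5) in HT vehicle females and 0.053 ± 0.134 (n = 5) in HT lithium females, where library 5 stood at 0.248. In HT males it was -0.068 ± 0.075 (n = 3) under vehicle and 0.060 ± 0.072 (n = 4) under lithium. WT males moved the other way, at 0.065 ± 0.056 under vehicle, -0.015 ± 0.076 under lithium and -0.045 ± 0.112 under fluoxetine (n = 5 each). Slc5a3 lost its calls in WT males under both drugs after the correction for GC content and length, as given above. After removal of that trend and of the trend with length, the Isyna1 value in HT was 0.22 (adjusted p = 0.122), at the upper end of a range of 0.00256 to 0.122 over 12 other settings. The averaged lithium rise of Isyna1 kept its call in all 12 settings, between 0.26 and 0.30.

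Under fluoxetine Isyna1 was higher in WT females, where the libraries held 713, 931, 847, 1020 and 731 normalised counts, all above vehicle, as for 2.41% of all genes. The log2 fold change was 0.46 ± 0.11 in WT females (limma adjusted p = 0.00449) and -0.13 ± 0.11 in WT males (adjusted p = 0.619), whose fluoxetine libraries held 624, 772, 646, 773 and 834. The GC slope of the WT females was -0.064 ± 0.079 under vehicle and 0.094 ± 0.064 under fluoxetine (SD, n = 5 each), and after the trend correction the value was 0.33 (adjusted p = 0.0582). It was 0.38 (adjusted p = 0.143) without the 14 libraries of highest olfactory level, in a range of 6.84e-04 to 0.143 over settings, and 0.46 (adjusted p = 0.0859) in a fit of the compared groups alone. Averaged over sexes, neither genotype passed, at 0.17 ± 0.08 in WT (adjusted p = 0.216) and 0.09 ± 0.09 in HT (adjusted p = 0.93). The HT libraries held 614, 697, 801, 925 and 805 in females and 570, 642, 692, 805 and 692 in males.

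Vehicle WT females had the lowest group mean of Isyna1 (612 ± 68.8 SD, n = 5) and lithium HT females the highest (878 ± 77.3, n = 5). Lithium WT females (876 ± 21.7, n = 4) and fluoxetine WT females (849 ± 130.5, n = 5) followed from the top. WT vehicle males stood at 795 ± 89.0 (n = 5), inside the range of the lithium and fluoxetine means. Here too no pair of neighbours in the order differed by more than the larger SD.

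The window upstream of Isyna1, from RefSeq on GRCm38.p6 (chr8:70594231-70594372, plus strand, 142 bases), is shown beside that of Slc5a3 because these were the 2 genes called under lithium with the sexes averaged. Capitals mark CCAAT on the reverse strand, read here as ATTGG.
Isyna1: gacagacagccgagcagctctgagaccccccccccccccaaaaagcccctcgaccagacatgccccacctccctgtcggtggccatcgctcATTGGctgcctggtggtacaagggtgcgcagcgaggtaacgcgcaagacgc
CCAAT occurs once, and 18.9% of promoter windows of that length held it on either strand. GGGCGG, of which Slc5a3 has 4 matches, is not in these 142 bases, and the other 4 motifs have no match there either. Across the 12 group means, Pearson's r between Slc5a3 and Isyna1 was 0.448, a description with no test, since both genes were read from the same libraries.

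**Figure D3:**
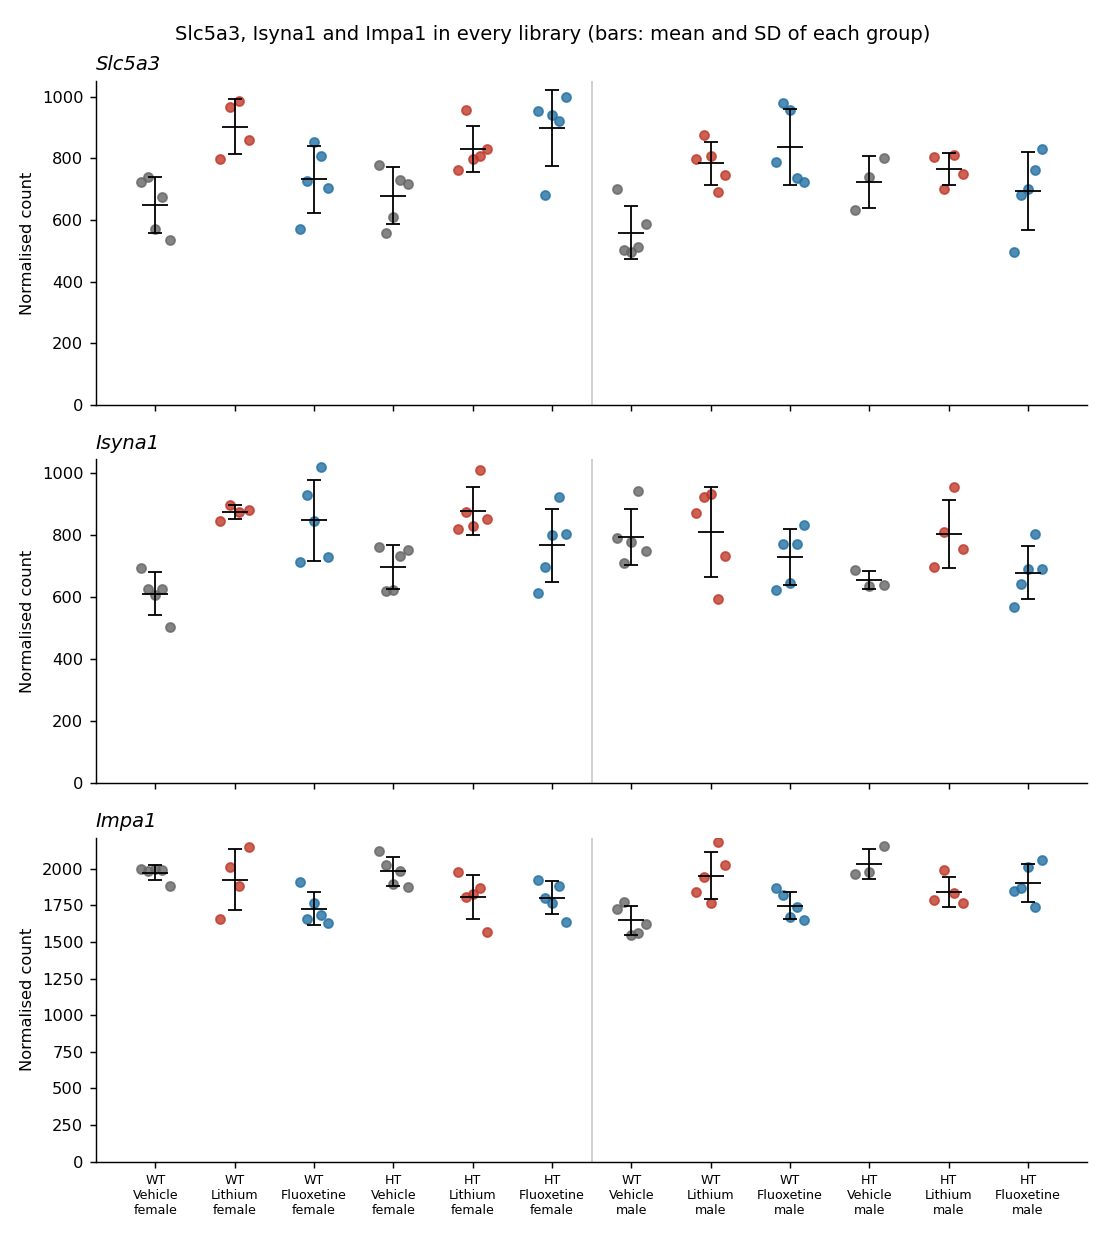
Normalised counts of Slc5a3, Isyna1 and Impa1 in every library of the 12 groups (females left of the grey line, males right; grey vehicle, red lithium, blue fluoxetine), with bars for the group mean and SD and axes from 0. The 4 lithium WT females lie above all 5 vehicle WT females for Slc5a3 and Isyna1, as for 5.27% of all genes. The vehicle WT males are the lowest group for Slc5a3 and Impa1.

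Impa1 (ENSMUSG00000027531, chr3:10311956-10331439, minus strand, GRCm38) encodes the inositol monophosphatase that lithium inhibits, and it was called within single sexes of WT mice. WT males held 1728, 1772, 1547, 1563 and 1626 normalised counts under vehicle and 1843, 1946, 1770, 2181 and 2026 under lithium. A single pair of libraries crossed, the highest vehicle library at 1772 and the lowest lithium library at 1770. In these males Impa1 rose by 0.24 ± 0.06 on the log2 scale (95% interval 0.12 to 0.37, 1.18-fold, limma adjusted p = 0.0223), where 2 of 10 genes and 2.3% of all genes were called. The call was lost in a fit of the compared groups alone (adjusted p = 0.0968, in a range of 0.00342 to 0.0968 over settings). It was also lost without lithium male 4 or 5 or vehicle male 3, 4 or 5, with adjusted p from 0.0548 to 0.14. With the sexes averaged, the WT value was 0.10 ± 0.05 (adjusted p = 0.144). It passed with array weights (0.12, adjusted p = 0.0332), without the 14 libraries of highest olfactory level (0.16, adjusted p = 0.034) and without lithium female 1 (0.14, adjusted p = 0.0413), in a range of 0.0332 to 0.182 over settings.

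The WT males under fluoxetine held 1868, 1822, 1671, 1737 and 1647 normalised counts of Impa1, overlapping vehicle (0.09 ± 0.06, adjusted p = 0.526).

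In WT females and in HT mice Impa1 had no positive lithium or fluoxetine value. WT females held 1998, 1987, 1998, 1994 and 1880 under vehicle and 1657, 2013, 1883 and 2148 under lithium, where the vehicle libraries were closely grouped and the lithium libraries ranged to both sides (-0.04 ± 0.07, adjusted p = 0.807). Under fluoxetine the WT females held 1908, 1660, 1765, 1682 and 1630, of which 4 of 5 lay below every vehicle library. Impa1 fell there, with a log2 fold change of -0.19 ± 0.06 (limma adjusted p = 0.0356), in a comparison that called 2 of 10 genes and 12.1% of all genes. It was -0.11 (adjusted p = 0.273) after the GC and length correction, in a range of 0.00404 to 0.273 over settings, and leaving out 1 library ended the call for 7 of 10 libraries (every vehicle female but the fifth, and fluoxetine females 2, 4 and 5, with adjusted p from 0.0599 to 0.106).

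HT mice had Impa1 at 2124, 2025, 1898, 1986 and 1877 normalised counts in vehicle females and 1980, 1805, 1830, 1868 and 1570 in lithium females. HT males had 1967, 1979 and 2153 under vehicle and 1787, 1993, 1834 and 1763 under lithium. The lithium libraries tended to lie lower and overlapped vehicle in both sexes, with a log2 fold change of -0.14 ± 0.05 (95% interval -0.24 to -0.04, limma adjusted p = 0.0654). It was -0.10 (adjusted p = 0.212) without the 2 libraries that stand apart, and it passed with array weights (-0.11, adjusted p = 0.0369), with the olfactory level as a covariate (-0.14, adjusted p = 0.0476) and without lithium female 1 or lithium male 2 (adjusted p = 0.0392 and 0.0459), in a range of 0.0369 to 0.374 over settings. Array weights and the olfactory covariate called 3452 and 2886 of all genes, against 1761 in the main fit. The lithium effect on Impa1 differed between the genotypes by -0.24 ± 0.07 (HT minus WT, 95% interval -0.37 to -0.10), not called over all genes (adjusted p = 0.292). It was -0.20 (adjusted p = 0.407) without the 2 libraries that stand apart. It was called without the 14 libraries of highest olfactory level (-0.30, adjusted p = 0.0225), a fit that keeps 2 of 5 HT lithium females, in a range of 0.0225 to 0.717 over settings. That fit called the difference for 902 of 18026 genes, against 3 in the main fit. The group means of Impa1 ran from 1647 ± 99.6 (SD, n = 5) in WT vehicle males to 2033 ± 104.4 (n = 3) in HT vehicle males, so 2 vehicle groups formed both ends of the order. Under fluoxetine the HT females held 1925, 1803, 1769, 1880 and 1637 (-0.14 ± 0.06, limma adjusted p = 0.379) and the HT males 1849, 1868, 2009, 1739 and 2062 (-0.09 ± 0.07, adjusted p = 1).

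Impa2 (ENSMUSG00000024525, chromosome 18), the second monophosphatase gene, ranged from 111 to 197 normalised counts over libraries. WT females had a mean of 139 ± 25.2 (SD, n = 5) under vehicle and 170 ± 15.6 (n = 4) under lithium, and WT males 170 ± 24.5 (n = 5) and 145 ± 25.0 (n = 5). The sexes pointed in opposite directions, at 0.30 ± 0.13 and -0.23 ± 0.12 on the log2 scale (limma adjusted p = 0.177 and 0.364), with a difference of -0.54 ± 0.18 (95% interval -0.91 to -0.17, adjusted p = 0.336). Averaged over sexes, the lithium effect on Impa2 was 0.03 ± 0.09 in WT and 0.06 ± 0.10 in HT, and also 0.06 in HT without the 2 libraries that stand apart. The transcript B430212C06Rik lies on the opposite strand and shares 1264 exonic bases with Impa2 (23.6% of those of Impa2), and it was near the detection limit at 0.0 to 21.1 normalised counts. The sources used here do not say whether strand was used in counting.

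Inpp1 (ENSMUSG00000026102, chr1:52785427-52817688, minus strand), which removes the 1-phosphate from inositol bisphosphate upstream of the monophosphatases, was among the steadiest of the 10. Its group means ran from 822 ± 93.3 (SD, n = 5) in HT lithium females to 899 ± 25.9 (n = 5) in HT vehicle females. Its lithium values were 0.01 ± 0.05 in WT (limma adjusted p = 0.926) and -0.11 ± 0.05 in HT (95% interval -0.21 to 0.00, adjusted p = 0.22). Library 5 of the HT lithium females, the one low in mitochondrially encoded genes, was the lowest of all at 656, and without the 2 libraries that stand apart the HT value was -0.06 (adjusted p = 0.496). Bpnt1 (ENSMUSG00000026617, chr1:185332149-185357777, plus strand), which acts on bisphosphorylated nucleotides and inositol phosphates, had group means from 1493 ± 75.2 (n = 5) to 1611 ± 101.7 (n = 3). Under lithium it had 0.05 ± 0.04 in WT (95% interval -0.03 to 0.13) and 0.00 ± 0.04 in HT (95% interval -0.09 to 0.08), or 0.02 without the 2 libraries. Both intervals of Bpnt1 end far below the 0.49 of Slc5a3 in WT.

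**Figure D4:**
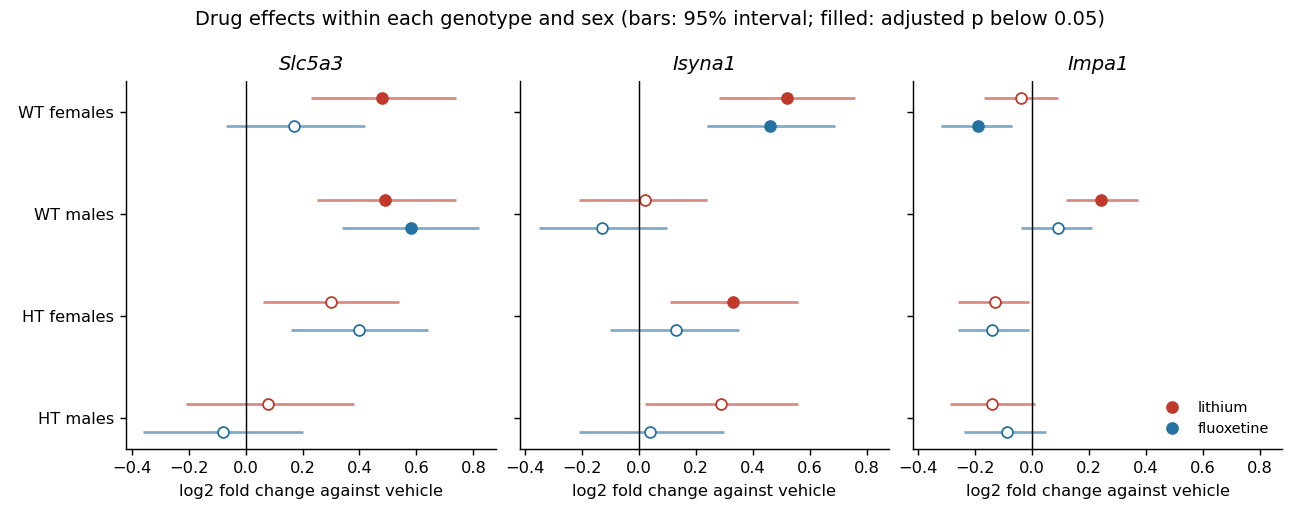
Log2 fold change against vehicle of Slc5a3, Isyna1 and Impa1 within each genotype and sex for lithium (red) and fluoxetine (blue), with 95% confidence intervals as bars and filled circles for adjusted p below 0.05. Slc5a3 is called in WT females and males under lithium, and Isyna1 in females of both genotypes and not in males.

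Within single sexes and genotypes, lithium gave 5 calls among the 10 genes over 4 comparisons. These were Isyna1 and Slc5a3 in WT females (6.62% of all genes called), Slc5a3 and Impa1 in WT males (2.3%) and Isyna1 in HT females (10.5%), the last not called by edgeR, and limma called 0 of 10 in HT males (0.0166%), where edgeR also called 0 and 1 gene had an unadjusted p below 0.05. Fluoxetine gave 3 calls, Isyna1 higher and Impa1 lower in WT females, where 12.1% of all genes were called, and Slc5a3 higher in WT males, where 1.03% were. In HT females limma and edgeR called 0 of 10 under fluoxetine (0.727% of all genes, 3 at an unadjusted p below 0.05), and in HT males 0 of 10 (0.0%, 1 at an unadjusted p below 0.05). The difference of the lithium effect between the sexes called 0 of 10 genes in WT (0.0% of all genes, 3 at an unadjusted p below 0.05) and 0 of 10 in HT (0.172%, 0 at an unadjusted p below 0.05) with limma and with edgeR. A lithium call in a single sex is therefore not shown to differ from the other sex. For fluoxetine the difference between the sexes was not tested for any of the 10 genes.

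The genes of the enzymes that rebuild phosphatidylinositol had the highest levels of the 10 per kilobase. Cds2 (ENSMUSG00000058793, chr2:132263148-132312050, plus strand) had group means from 15264 ± 1651.7 (SD, n = 5) in WT vehicle females to 16970 ± 936.9 (n = 5) in HT fluoxetine females, and its lithium values were 0.05 ± 0.05 in WT and 0.00 ± 0.05 in HT, or -0.02 in HT without the 2 libraries that stand apart. Cds1 (ENSMUSG00000029330, chr5:101765130-101823858, plus strand), its paralog, had -0.01 ± 0.05 and 0.00 ± 0.06, or -0.01 in HT without the 2 libraries. The 5 fluoxetine HT males had Cds1 at 2662 to 2969 normalised counts (median 2903), below the 3 vehicle HT males at 3015 to 3475 (median 3170). That separation, which 1.7% of all genes showed in this direction, came with a log2 fold change of -0.18 ± 0.08 (limma adjusted p = 1). Cds1 in fluoxetine HT males was also the lowest group mean (2846 ± 141.4, n = 5), and its gap to the next group, WT lithium males at 3023 ± 158.5 (n = 5), exceeded both SDs.

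Cdipt (ENSMUSG00000030682, chr7:126975914-126980501, plus strand), which joins inositol to the activated lipid, was highest in lithium HT males at 4017 ± 66.4 normalised counts (SD, n = 4). Those 4 libraries, at 3925 to 4069, lay above the 3 vehicle HT males at 3494 to 3812, as for 8.57% of all genes. Lithium against vehicle gave 0.12 ± 0.09 there (limma adjusted p = 0.653), and averaged over sexes 0.08 ± 0.06 in HT and 0.07 ± 0.05 in WT (adjusted p = 0.383 and 0.419). Cdipt in HT had 0.06 (adjusted p = 0.584) without the 2 libraries that stand apart. Its gap of 318.0 normalised counts to the next group mean was larger than either SD, the single such gap in the order of Cdipt.

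Itpk1 (ENSMUSG00000057963, chr12:102568582-102704930, minus strand), a kinase that moves inositol phosphates toward the higher phosphorylated forms, ran from 1481 ± 164.7 (SD, n = 5) in WT fluoxetine males to 1862 ± 125.5 (n = 4) in HT lithium males. Its lithium values were 0.10 ± 0.07 in WT and 0.11 ± 0.07 in HT (limma adjusted p = 0.372 and 0.384). Without the 14 libraries of highest olfactory level, the HT value was 0.27 (adjusted p = 0.00613), in a range of 0.00613 to 0.957 over settings. The fit without the 14 called 3042 of all genes, against 1761 in the main fit. The fit without the 14 keeps libraries 1 and 5 of the HT lithium females, the highest of the group at 2131 and 2121 normalised counts of Itpk1, and library 5 is 1 of the 2 that stand apart. Without those 2 alone, the HT value was 0.08 (adjusted p = 0.546). Lithium HT females spread from 1372 to 2131 (median 1630), the widest group for this gene, with a coefficient of variation of 19.8%.

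HT against WT called 0 of 10 under vehicle, lithium and fluoxetine, with 0.0% of all genes called in each, 2, 0 and 2 of 10 at an unadjusted p below 0.05, and 0 of 10 with edgeR on the recovered reads in each. Under vehicle, Slc5a3 was 0.22 ± 0.09 higher in HT (95% interval 0.04 to 0.41, limma adjusted p = 0.752) and Impa1 0.16 ± 0.05 higher (95% interval 0.06 to 0.25, adjusted p = 0.62). Without the 2 libraries that stand apart they were 0.20 for Slc5a3 (adjusted p = 0.541) and 0.14 for Impa1 (adjusted p = 0.476). Under lithium these differences were -0.08 ± 0.09 and -0.08 ± 0.05, or -0.08 and -0.06 without the 2 libraries. The difference of the lithium effect between genotypes called 0 of 10 genes with limma and edgeR (0.0166% of all genes, 2 of 10 at an unadjusted p below 0.05), and that of the fluoxetine effect 0 of 10 (0.0%, 0 at an unadjusted p below 0.05). Males against females over all groups called 0 of 10 with both tools (0.283% of all genes), and 1 gene, Slc5a3, had an interval short of 0 at -0.10 ± 0.05 (adjusted p = 0.388).

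Around the cycle, 86 genes in 8 lists were tested, beside 11.7% of all genes called under lithium in WT, 9.77% in HT and 21.7% with genotypes averaged. Without the 2 libraries that stand apart the last 2 shares were 7.7% and 22.5%. Of the phosphatidylinositol kinases and transfer proteins, 4 of 16 rose and 0 fell under lithium in WT, 3 rose and 1 fell in HT, and 6 rose and 3 fell with genotypes averaged (median 0.03, all genes -0.003). With the 2 left out, 2 rose and 2 fell in HT and 5 rose and 3 fell averaged. Pitpnm2, a membrane-bound phosphatidylinositol transfer protein, rose by 0.34 ± 0.06 in WT (limma adjusted p = 9.76e-05) and 0.30 ± 0.06 in HT (adjusted p = 0.00156), or 0.26 in HT (adjusted p = 0.00779) without the 2 libraries. Pi4ka, the kinase that makes phosphatidylinositol 4-phosphate at the plasma membrane, rose by 0.23 ± 0.06 in WT and had 0.17 ± 0.06 in HT (adjusted p = 0.00622 and 0.0716). With genotypes averaged, Pip4k2c, a phosphatidylinositol phosphate kinase, rose by 0.17 ± 0.04 (adjusted p = 0.00191), and Pitpnb, a soluble transfer protein, fell by 0.09 (-0.09 ± 0.02, adjusted p = 0.00301).

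Of 14 phospholipases C, which start the cycle, 2 rose in WT, 2 in HT and 3 with genotypes averaged, and 0 fell (averaged median 0.12), where 11.7%, 9.77% and 21.7% of all genes were called. Without the 2 libraries that stand apart, 1 rose in HT and 2 averaged. Plcg1, which acts downstream of receptor tyrosine kinases, rose in both genotypes by 0.13 ± 0.03 and 0.15 ± 0.03 (limma adjusted p = 0.0053 and 0.00308), and also under fluoxetine in WT by 0.16 ± 0.03 (adjusted p = 0.00135). Plcd4 rose in WT by 0.26 ± 0.08 and Plcd1 in HT by 0.32 ± 0.10 (adjusted p = 0.0361 and 0.0355, the latter 0.29 with adjusted p = 0.0843 without the 2 libraries), and Plcl1, a catalytically inactive relative, rose with genotypes averaged by 0.13 ± 0.05 (adjusted p = 0.0446), or had 0.12 (adjusted p = 0.0694) without them. Of the 3 inositol trisphosphate receptors, the calcium channels that the messenger opens, limma and edgeR called 0 in WT, HT or averaged, with 0, 0 and 1 at an unadjusted p below 0.05. With genotypes averaged, Itpr2 had 0.10 ± 0.05 (adjusted p = 0.145) and Itpr3 0.22 ± 0.11 (adjusted p = 0.184).

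Enzymes that add or remove phosphates on inositol phosphates or on phosphorylated forms of phosphatidylinositol gave counts near the shares of all genes. Those shares were 11.7% in WT, 9.77% in HT and 21.7% averaged. Of 14 inositol phosphate 5- and 4-phosphatases, 2 rose in WT, 1 in HT and 2 averaged, and 0 fell (averaged median 0.07), and without the 2 libraries that stand apart 0 were called in HT, and 2 rose and 1 fell averaged. Inpp5k rose in WT by 0.17 ± 0.04 and Synj1, which acts on synaptic vesicle membranes, by 0.20 ± 0.06 (limma adjusted p = 0.00656 and 0.0273), where the HT values were -0.01 ± 0.05 and 0.01 ± 0.07. Inpp5b rose in HT by 0.12 ± 0.04 (adjusted p = 0.0278), or had 0.11 (adjusted p = 0.0633) without the 2 libraries, and Inppl1 with genotypes averaged by 0.16 ± 0.06 (adjusted p = 0.0303). Of 10 inositol phosphate kinases, 1 rose in WT, 1 in HT and 2 averaged, and 0 fell (averaged median 0.05). Ppip5k1, which makes inositol pyrophosphates, was that gene in both genotypes at 0.15 ± 0.04 (adjusted p = 0.00812 in WT and 0.018 in HT), and Itpkb, which phosphorylates inositol trisphosphate, rose by 0.14 ± 0.05 averaged (adjusted p = 0.0318). The gene called in HT without the 2 libraries was Itpkb (0.24, adjusted p = 0.0203) and Ppip5k1 had 0.12 (adjusted p = 0.0802).

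A list of 15 genes covers diacylglycerol kinases, which feed CDS1 and CDS2, and other genes around phosphatidate, some of which draw on it. Of these 15 genes, 2 rose in WT, 2 in HT and 4 averaged, and 2 fell averaged (median 0.09). In the same comparisons 11.7%, 9.77% and 21.7% of all genes were called. The HT and averaged counts of the list were equal without the 2 libraries that stand apart. The diacylglycerol kinase genes Dgkq and Dgki rose averaged by 0.14 ± 0.03 and 0.23 ± 0.06 (limma adjusted p = 0.00135 and 0.00233). Lpin1, a phosphatidate phosphatase gene, rose by 0.15 ± 0.04 averaged (adjusted p = 0.00382), and Tamm41, the mitochondrial counterpart of CDS1 and CDS2, fell by 0.16 (-0.16 ± 0.05, adjusted p = 0.00891).

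The tonicity list holds genes that cells raise in salty surroundings, a set to which Slc5a3 also belongs by its known regulation. Of its 9 genes, 2 rose in WT under lithium (median 0.15, 11.7% of all genes called), and limma and edgeR called 0 in HT (median -0.02, 9.77% of all genes called, 1 at an unadjusted p below 0.05). In HT without the 2 libraries that stand apart, limma also called 0, and the median was 0.09. Slc38a2, an amino acid transporter gene, rose in WT by 0.30 ± 0.07 and Nfat5, the tonicity factor itself, by 0.24 ± 0.07 (limma adjusted p = 0.00468 and 0.0144). In HT they had 0.09 ± 0.08 and 0.02 ± 0.07 (adjusted p = 0.538 and 0.911). With genotypes averaged 2 rose and 1 fell (median 0.03, 21.7% of all genes called). Hspa1b, a chaperone gene, rose by 0.45 ± 0.14 (adjusted p = 0.0164), and Akr1b3, the aldose reductase gene, which makes the osmolyte sorbitol, fell by 0.11 (-0.11 ± 0.04, adjusted p = 0.037). Without the 2 libraries that stand apart 3 rose and 0 fell (median 0.16), with Nfat5 at 0.16 (adjusted p = 0.00424) and Akr1b3 at -0.10 (adjusted p = 0.0533). Of 5 other genes for inositol transport, breakdown and related phosphatases, limma and edgeR called 0 in WT and 0 in HT, with 0 and 1 at an unadjusted p below 0.05. The proton-coupled inositol transporter gene Slc2a13 had 0.04 ± 0.09 in WT and -0.10 ± 0.09 in HT, and Impad1, a further lithium-inhibited phosphatase gene, had -0.04 ± 0.07 and -0.22 ± 0.08 (adjusted p = 0.769 and 0.0512). Miox, Fbp1 and Fbp2 were not analysed here.

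**Figure D5:**
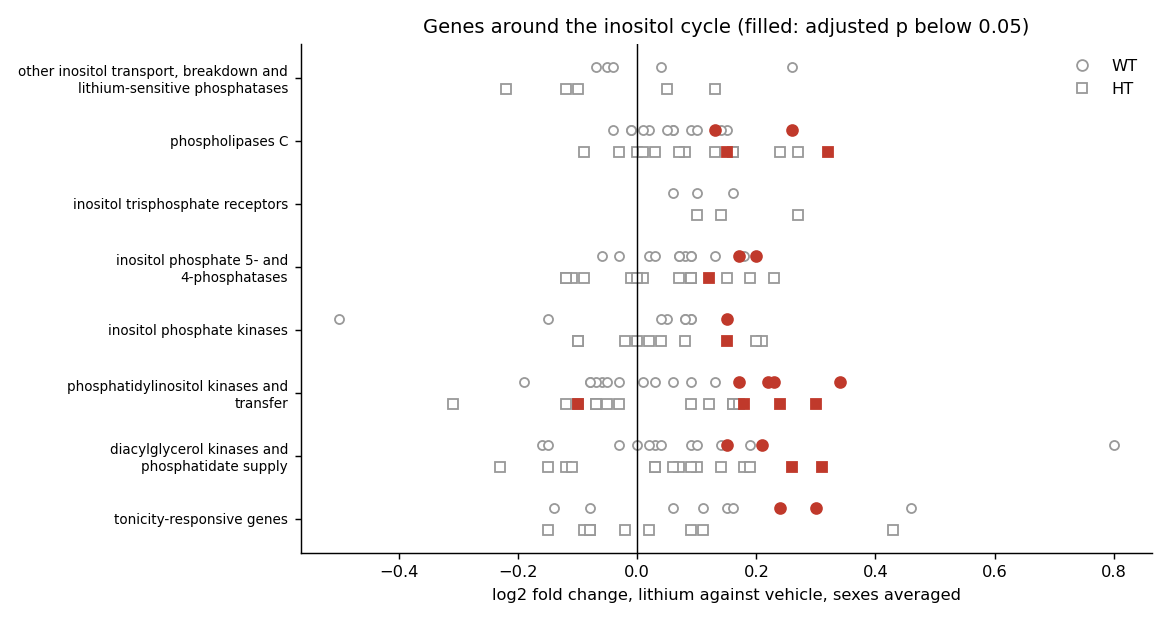
Log2 fold change under lithium against vehicle, sexes averaged, for each of 86 genes in 8 lists around the inositol cycle (circles WT, squares HT), with filled red symbols for adjusted p below 0.05. Called genes lie mostly right of 0, with Pitpnm2 at 0.34 in WT and 0.30 in HT, and Pitpnb at -0.10 in HT lies left of it.

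Markers of other cell types moved in the same comparisons, and their part in the results was not tested. Under lithium in WT, 3 of 7 endothelial and mural markers fell (Pdgfrb, Cldn5 and Kdr) and 1, Slc2a1, rose by 0.46, and 2 of 6 microglial markers fell, where 11.7% of all genes were called. In HT, where 9.77% of all genes were called, 2 of 7 endothelial and mural markers rose (Slc2a1 by 0.31 and Flt1 by 0.33) and 0 fell, as without the 2 libraries that stand apart. In the same comparison 1 of 6 microglial markers, Csf1r, rose and 0 fell. Without the 2 libraries Csf1r lost its call (0.2, limma adjusted p = 0.126). Of 8 cortical excitatory neuron markers 1, Cux2, also rose in HT, and of 3 oligodendrocyte progenitor markers 1, Cspg4. Without the 2 libraries these had 0.34 and 0.35 (limma adjusted p = 0.0307 and 0.042). The summed endothelial and mural level was 9485 to 12698 normalised counts in WT vehicle females and 11831 to 14470 in WT lithium females, and 12221 to 13327 and 11070 to 12103 in the males. The summed microglial level was 7426 to 9103 and 7573 to 8697 in the females and 7908 to 9837 and 6680 to 7994 in the males. Of 7 astrocyte markers 0 were called in WT (median -0.03) and 1 in HT, where Aldoc rose by 0.26 (limma adjusted p = 0.024). Of 7 oligodendrocyte markers limma and edgeR called 0 under lithium in WT (median -0.23, 0 at an unadjusted p below 0.05) and 0 in HT (median -0.43, 3 at an unadjusted p below 0.05), and 3 fell with genotypes averaged (median -0.37, 21.7% of all genes called), also without the 2 libraries. Under fluoxetine in WT, 4 of 7 oligodendrocyte markers fell (median -0.65, 5.18% of all genes called). Their summed level was 136815 to 170772 in WT vehicle females against 53207 to 143504 under fluoxetine, and 85145 to 250635 against 87306 to 170907 in the males. No marker of the endothelial and mural, microglial, astrocyte and oligodendrocyte lists was at 0 in any group.

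Some genes outside the cycle followed a like pattern over the 12 group means of log2 values. The named genes with the highest Pearson's r to Slc5a3 were Ahctf1 (0.937), P4ha1 (0.922), Uba6 (0.918) and Hspa5 (0.905). For Isyna1 they were Lamb2 (0.935), Pla2g6 (0.935), Mrc2 (0.930) and Osbpl7 (0.922), and for Impa1 they were Arl6ip1 (0.915), Fyttd1 (0.904), Elovl4 (0.897) and Ssr3 (0.896). Each of the 12 points is a mean of 3 to 5 libraries, both genes of a pair were read from the same libraries, and the highest of many genes were picked, so these values describe likeness and carry no test. Between members, Isyna1 and Impa1 had r = -0.508, and Isyna1 and Impa2 0.590.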

How the data were processed

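Prefrontal cortex RNA was read as TruSeq Stranded mRNA libraries, per the labels' protocols. The table deposited by the authors holds a signal per gene and library, read counts divided by a size factor of the library, as its values show: 100% of values came out as whole reads within 1e-06. The submitters' processing notes name Salmon 0.11.2, R 3.6.0, DESeq2 1.19.11 and GRCm38, without role or order, and the sources used here do not say whether counting used strand. Of 59 columns, 56 matched 1 labelled sample each, 3 match none and were not used, and 1 of 57 labelled samples, a WT lithium female, was not analysed here. Symbols matched 18077 of 18088 identifiers, and 3 genes were at 0 in all libraries. No 2 libraries of a group agreed within sampling noise (smallest chi-square per degree of freedom 4.71 over 105 pairs).

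Values were tested as log2(value + 1) with limma 3.58.1 (R 4.3.3, mean-variance trend) in 1 fit of the 12 groups with 44 residual degrees of freedom and 23 contrasts, over the 18026 genes that reached 10 in 3 or more libraries. Calls were made at p below 0.05 after Benjamini-Hochberg adjustment. Alternatives were limma without the trend, TMM factors, no filter, a pseudocount of 5, the compared groups only, a replicate block, array weights, edgeR 4.0.16 on the recovered reads, an olfactory covariate, a GC and length correction (splines with 4 degrees of freedom), the fit without 2 libraries over 5 median absolute deviations out, the fit without the 14 libraries of highest olfactory level, and each library left out. The code was tested on simulated data.

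The 10 genes and the pathway and marker lists were chosen with earlier results of these data known. Named besides the members were genes with overlapping exons, up to 4 called genes of each list with the smallest p (up to 2 values where none was called), and for 3 members the 4 genes most like them. Gene coordinates are those of GENCODE M21 on GRCm38. RefSeq promoter windows matched 7 of the 10 genes.

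Replicate numbers in the labels were checked as pairs between groups of the same genotype and sex. Of 35 same-number pairs, 5 correlated above 0.1 (range -0.327 to 0.452, median -0.007), so the numbers do not pair the libraries.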

Additional observations from a re-analysis of the deposited data

Results flagged for a closer look

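In 110 sets of 4 or 5 libraries (10 genes by 11 groups), 6 held a highest or lowest library whose gap to its nearest neighbour, as a share of the range of the set, exceeded Dixon's 95% critical value for a set of that size. Chance alone gives about 1 in 20 such sets. Of the WT vehicle females, library 5 had Impa1 at 1880.4 normalised counts, where the others lay at 1986.6 to 1998.4. Library 4 of the same group had Cds1 at 2763.4, below the others at 3202.3 to 3289.4. Of the WT lithium females, library 2 had Bpnt1 at 1643.6, above the others at 1556.1 to 1570.6.

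Of the HT lithium females, library 5, which is also low in mitochondrially encoded genes, had Inpp1 at 655.9, below the others at 844.1 to 877.0. Library 4 of that group had Isyna1 at 1011.5, above the others at 820.9 to 875.7. Of the HT fluoxetine females, library 2 had Slc5a3 at 682.2, below the others at 920.0 to 999.7.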

How the results depend on the processing

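The cause of these moves in the count of the 10 genes called was not tested. Lithium in WT (2 called) gave 1 to 3 with single libraries left out, 1 without vehicle female 5 and 3 without lithium female 1, and 3 with array weights. Lithium in HT (1 called) gave 2 with array weights, 2 with the olfactory level as a covariate, 2 without the 14 libraries of highest olfactory level, 0 after the GC and length correction, and 0 to 2 with single libraries left out. The calls over all 18026 genes moved too, from 1761 in the main fit. They were 3452 with array weights, 2886 with the covariate, 3042 without the 14 libraries and 509 after the correction. With genotypes averaged (2 called), lithium gave 4 without the 14 libraries and 3 after the GC and length correction. Lithium against fluoxetine in WT (0 called) gave 1 with array weights, 1 with the olfactory covariate and 0 to 1 with single libraries left out. That comparison called 42 of all genes in the main fit, 186 with array weights and 574 with the covariate. The difference of the lithium effect between genotypes (0 called) gave 1 without the 14 libraries, where 902 of all genes were called against 3 in the main fit. Within each sex and genotype, lithium (5 called) gave 2 after the GC and length correction, 3 with the compared groups only and 3 to 5 with single libraries left out, and fluoxetine (3 called) gave 0 after the correction and 0 with the compared groups only. Smaller moves there were 6 for lithium with array weights and 4 with TMM factors, without the trend, without the 2 libraries that stand apart or with edgeR. For fluoxetine they were 4 with array weights or the olfactory covariate, 2 without the 14 libraries and 2 to 4 with single libraries left out. Of all genes, fluoxetine in WT females called 2189 in the main fit, 518 after the GC and length correction and 12 with the compared groups only. In WT males it called 185, 73 and 54 in the same order.

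With the replicate number as a block, lithium called 2 genes in WT, 1 in HT and 2 averaged, fluoxetine called 1 in WT and 0 in HT, and the single sexes gave 5 and 3, as without the block. The library of the same number correlated best in 9 of 35 pairs. No value of the 10 genes called in a comparison changed sign in these alternatives. Reads limit Impa2 most, with 100 in its lowest library, and 3 HT vehicle males limit every comparison of HT males.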
